A study of Mus musculus with 8 samples.

Results

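CypD OE cells, B16F10 mouse melanoma cells selected after transfection with pcDNA-CypD, were compared with Control cells selected after transfection with empty pcDNA, both kept at 1% oxygen for 24 h. CypD is cyclophilin D, a peptidyl-prolyl isomerase of the mitochondrial matrix that is encoded by Ppif. The comparison uses 4 of the 8 RNA-seq libraries of the series, 2 per group. The other 4 came from WT cells and from Ppif knockout (CypD KO) cells at 21% oxygen and are given only beside these values. All genes with at least 1 TPM (a relative abundance of transcripts, corrected for their length and summing to a fixed total per library) in at least 2 of the 4 libraries were taken, which gave 12656 of 55414 listed genes. Of these, 12432 had a transcript of at least 300 bases, 182 had only shorter transcripts and were set apart, and 42 were not in the annotation used. The selecting agent was G418, and the methods describe resistant clones but not whether a library came from 1 clone or several, nor whether the libraries of a group were separate cultures. The p-values below therefore measure the spread between these libraries only. Oxygen was the same in both groups. A plasmid-carrying group at 21% oxygen was not analysed here, so whether the differences depend on 1% oxygen cannot be told. Differences between selected clones cannot be told apart from the effect of the transgene.

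Cells sense oxygen through prolyl hydroxylases, encoded by Egln1, Egln2 and Egln3, which mark the alpha subunits of hypoxia-inducible factor (HIF) for destruction by the VHL ubiquitin ligase as long as oxygen is present. When oxygen falls, HIF1α or HIF2α pairs with ARNT and switches on genes for glucose uptake, glycolysis, lactate export, angiogenesis, collagen modification and mitophagy, among them the gene of its own regulator Egln1. CypD promotes opening of the mitochondrial permeability transition pore, which releases calcium from the matrix. The comparison describes how the transcriptome in mild hypoxia differs between melanoma cells selected with pcDNA-CypD and those selected with empty pcDNA.

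HIF, the endoplasmic reticulum (ER) stress factors and NRF2 each bind a short DNA motif, and these motifs were looked up in promoter windows of 300 bases (250 before and 50 after the transcription start, RefSeq, build GRCm38.p6). The HIF core, ACGTG on either strand, which also lies within the E-box CACGTG, was found in 19.6% of all 32851 windows and in 26.3% of the windows of tested genes, of which only 9135 of 12422 had a window, so that this share is of the matched genes alone. It was in 35 of 61 windows (57.4%) of the tested hypoxia genes, for which 45 of 55 genes had a window, and in a like 28 of 49 (57.1%) of those that fell in CypD OE, with 38 of 46 genes matched. The ER stress element, CCAAT, any 9 bases and CCACG on either strand, was in 0.119% of all windows and 0.162% of those of tested genes. It was in 8 of 21 windows (38.1%) of the tested ER chaperone genes, with 21 of 24 genes matched. Among those that fell it was in 8 of 18 windows (44.4%), with 18 of 21 genes matched. The antioxidant response core, TGAC, any 3 bases and GC on either strand, was in 12.4% of all windows and 14.1% of those of tested genes. It was in 8 of 30 windows (26.7%) of the tested NRF2 target genes, with 22 of 26 genes matched. Among those that rose it was in a like 4 of 14 windows (28.6%), with 11 of 13 genes matched. A match describes letters in a window and is neither a binding site nor a cause of a change. The windows of Bnip3 (chr7:138909457-138909756, minus strand) and Ldha (chr7:46845554-46845853, plus strand) are shown for genes that fell and hold the HIF core, those of Hsp90b1 (chr10:86705395-86705694, minus strand) and Creld2 (chr15:88819396-88819695, plus strand) for ER genes that fell, and that of Srxn1 (chr2:152105274-152105573, plus strand) for a gene that rose. Capitals mark the matches to the motif of that group.
Bnip3: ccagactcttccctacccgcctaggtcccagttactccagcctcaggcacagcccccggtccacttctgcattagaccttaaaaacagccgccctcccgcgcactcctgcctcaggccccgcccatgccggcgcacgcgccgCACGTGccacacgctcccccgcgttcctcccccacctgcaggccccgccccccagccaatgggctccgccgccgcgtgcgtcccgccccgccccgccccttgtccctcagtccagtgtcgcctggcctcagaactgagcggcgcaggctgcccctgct
Ldha: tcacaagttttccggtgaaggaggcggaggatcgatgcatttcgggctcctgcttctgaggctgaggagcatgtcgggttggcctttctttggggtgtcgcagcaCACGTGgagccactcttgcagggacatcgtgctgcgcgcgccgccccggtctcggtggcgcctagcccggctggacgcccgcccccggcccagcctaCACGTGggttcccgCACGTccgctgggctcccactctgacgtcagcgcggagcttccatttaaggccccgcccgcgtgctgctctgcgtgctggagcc
Hsp90b1: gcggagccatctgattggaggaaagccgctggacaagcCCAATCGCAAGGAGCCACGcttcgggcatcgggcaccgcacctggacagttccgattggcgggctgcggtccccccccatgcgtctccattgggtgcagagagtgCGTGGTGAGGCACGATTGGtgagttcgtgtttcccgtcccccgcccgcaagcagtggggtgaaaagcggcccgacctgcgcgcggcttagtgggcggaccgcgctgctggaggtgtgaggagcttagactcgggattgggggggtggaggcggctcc
Creld2: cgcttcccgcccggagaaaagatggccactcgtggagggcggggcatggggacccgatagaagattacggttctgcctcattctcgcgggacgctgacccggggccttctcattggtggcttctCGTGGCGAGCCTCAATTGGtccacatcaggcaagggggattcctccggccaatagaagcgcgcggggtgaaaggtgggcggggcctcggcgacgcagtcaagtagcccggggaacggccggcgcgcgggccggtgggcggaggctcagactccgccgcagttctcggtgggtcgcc
Srxn1: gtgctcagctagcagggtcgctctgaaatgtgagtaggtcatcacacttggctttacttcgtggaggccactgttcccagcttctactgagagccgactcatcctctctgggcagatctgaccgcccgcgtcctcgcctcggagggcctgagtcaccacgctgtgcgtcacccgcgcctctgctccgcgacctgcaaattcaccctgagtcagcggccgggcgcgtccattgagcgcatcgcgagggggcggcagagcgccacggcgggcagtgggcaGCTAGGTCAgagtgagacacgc

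The libraries were alike in depth. A single fragment on 1000 effective bases was worth 0.0975 and 0.0905 TPM in Control and 0.0835 and 0.082 TPM in CypD OE, read from the steps between low values. Replicates correlated across genes at 0.984 in Control and 0.987 in CypD OE (Pearson, log2 scale), with a median absolute difference of 0.0965 and 0.092. The mitochondrial genome took 10.02% and 9.502% of TPM in Control and 12.96% and 13.68% in CypD OE, and transcripts under 300 bases took 5.219% and 5.17% against 6.984% and 7.177%. These shares overlap in mt-Atp8, a short mitochondrial transcript and the highest gene in every library. It was 39842.47 and 39467.99 TPM in Control and 56326.92 and 57826.79 TPM in CypD OE. Melanocyte genes marked the cells as labelled, with 25 of 27 at 1 TPM or more in every Control and CypD OE library. Markers of other cells were low in these libraries. The summed TPM of 12 fibroblast markers was 26.3 and 24.18 in Control and 13.02 and 11.2 in CypD OE, and it was at most 4.9 for endothelial and macrophage markers, at most 6.15 for T cell markers and at most 0.08 for keratinocyte markers.

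Ppif itself, the gene of CypD (chr14:25694522-25707332, plus strand, GRCm39), was 44.59 and 42.25 TPM in Control and 50.29 and 49.28 TPM in CypD OE. Both CypD OE libraries were above both Control libraries, but the difference of 0.19 ± 0.07 (SE) on the log2 scale did not pass the test over all genes (limma, adjusted p = 0.0744). WT cells at 21% oxygen had 50.68 and 49.99 TPM, and CypD KO cells 10.44 and 12.11 TPM. The libraries are therefore named CypD OE by their label. The paper reports raised CypD protein in the resistant clones by western blot, and protein is not measured by these RNA values. Reads of the transgene and of the gene on the chromosome are not separated in these values.

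A large part of the transcriptome differed between the groups. Among genes of at least 300 bases, 2594 rose in CypD OE (20.9% of those tested) and 2477 fell (19.9%) at an adjusted p under 0.05. Most changes were small, with a median absolute log2 fold change of 0.449 among called genes. Log2 fold changes are differences in mean log2(TPM + 1), CypD OE minus Control. Decreases reached further than increases: 365 genes fell by more than 1 on the log2 scale against 241 that rose by as much, and 67 fell by more than 2 against 17. Past 4 on that scale were 12 genes that fell and 1 that rose. All 5071 called genes had no overlap between the 2 and 2 libraries, as did 70.9% of all genes tested.

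**Figure D1:**
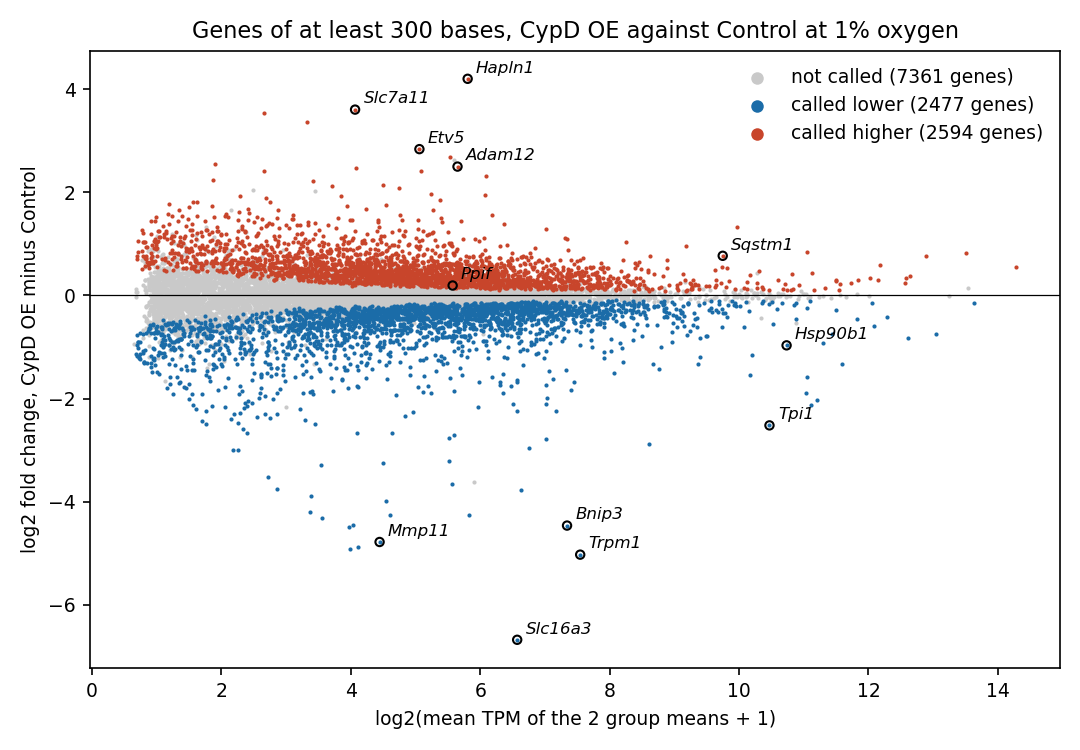
Log2 fold change, CypD OE minus Control, against mean expression as log2(TPM + 1), 1 point per gene of at least 300 bases, with 2594 called higher in red, 2477 called lower in blue and the rest in grey. The points reach further below 0 than above it, with Slc16a3 at -6.68 and Hapln1 at 4.21, and Ppif lies close to the zero line.

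Genes of the hypoxia response were lower as a group. Of 55 tested genes in a list of HIF-responsive genes, 46 fell and 3 rose, with a median log2 fold change of -1.30 against 0.00713 over all genes. Bnip3, a mitophagy receptor of the outer mitochondrial membrane (chr7:138490690-138511253, minus strand), was 311.44 and 307.06 TPM in Control and 13.59 and 12.52 TPM in CypD OE. The groups were far apart and both libraries of each group lay close together (log2 fold change -4.47 ± 0.11 SE, limma adjusted p = 7.2e-07). Pdk1, the kinase that closes pyruvate dehydrogenase, was 101.13 and 113.09 TPM in Control and 6.6 and 3.19 TPM in CypD OE (-4.26 ± 0.24, limma adjusted p = 2.7e-05). Both CypD OE values were far under the lower Control value. Adm, the gene of the vasodilator peptide adrenomedullin, was 20.61 and 16.67 TPM against 0.14 and 0.53 TPM (-3.89 ± 0.31, limma adjusted p = 0.00013), so that its transcript was close to absent in CypD OE. Fam162a, a mitochondrial protein induced by HIF1, was among the most abundant of these genes, with 674.38 and 697.26 TPM in Control and 90.92 and 92.85 TPM in CypD OE (-2.89 ± 0.08, limma adjusted p = 1.4e-06). The groups did not overlap and the replicates of each differed by only a few percent. Ak4 and Ddit4, named after their values were seen, also fell, Ak4 (a mitochondrial adenylate kinase) by 2.76 and Ddit4 (an inhibitor of mTORC1) by 2.67 on the log2 scale. Without the first Control or the first CypD OE library 1 member rose in place of 3. Among the members that rose were Slc2a3, the glucose transporter GLUT3 (0.90), and Car12, a membrane carbonic anhydrase (0.66). Car12 lost its call when some single libraries were left out.

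The oxygen sensors themselves changed in the same comparison. Egln1, the main HIF prolyl hydroxylase and itself a HIF target, was 102.3 and 99.33 TPM in Control and 21.22 and 22.42 TPM in CypD OE. The groups were clearly apart (-2.16 ± 0.05, limma adjusted p = 5.9e-07). Egln3, a hydroxylase of the same family, was 8.06 and 7.06 TPM against 1.22 and 0.7 TPM (-2.14 ± 0.17). Egln2, the remaining member of the family, was 22.4 and 22.5 TPM against 31.26 and 28.12 TPM and rose (0.39 ± 0.08, limma adjusted p = 0.0077). The HIF alpha subunits moved in opposite directions. Hif1a was 138.38 and 134.79 TPM in Control and 98.26 and 98.85 TPM in CypD OE and fell (-0.47 ± 0.05, limma adjusted p = 0.00048), while Epas1, the gene of HIF2α, was 2.01 and 2.59 TPM against 6.19 and 6.2 TPM and rose (1.13 ± 0.15, limma adjusted p = 0.0011). Elob and Rbx1, parts of the VHL ubiquitin ligase, fell by 0.43 and 0.45. In all, 8 of 14 tested genes of this group fell and 2 rose. Of the 12 that are not in the hypoxia list, 6 fell and 2 rose.

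Glucose uptake and glycolysis, which split glucose into pyruvate and lactate and include many HIF targets, had the lowest median of the process lists, -1.41, with 19 of 28 tested genes lower and 3 higher. The 23 members that are not in the hypoxia list had a median of -1.45, with 17 lower and 2 higher. Slc16a3, the lactate exporter MCT4, was 177.44 and 196.98 TPM in Control, 0.42 and 1.36 TPM in CypD OE and 7.89 and 7.9 TPM in WT, the largest decrease of any protein-coding gene named (-6.68 ± 0.21, limma adjusted p = 1.9e-06). Pfkl, the liver-type phosphofructokinase, was 175.47 and 193.4 TPM against 12.58 and 12.36 TPM (-3.78 ± 0.06). Tpi1, triose phosphate isomerase, was 2366.9 and 2462.61 TPM against 408.71 and 431.34 TPM (-2.52 ± 0.04). For both genes the groups were far apart and CypD OE was also below both WT libraries. Pgk1 and Ldha, phosphoglycerate kinase and lactate dehydrogenase A, fell by 2.12 and 2.04, and Bpgm, which makes bisphosphoglycerate, rose by 0.74. Of the 19 members that fell, 14 were below both WT libraries, near the share over all genes that fell (1823 of 2477).

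Further lists of processes that HIF acts on share members with the hypoxia list, so that their counts are not independent of it. For glycogen, 9 of 16 tested genes fell and 2 rose, the latter 0 or 1 when any single library was left out, and 2 of those that fell are in the hypoxia list. The decreases took in genes of glycogen synthesis and of its breakdown. Ugp2, which makes UDP-glucose, was 628.36 and 631.75 TPM in Control and 238.73 and 227.62 TPM in CypD OE. Its groups were apart by 1.43 on the log2 scale (SE 0.03, limma adjusted p = 5.6e-07). Pgm1 fell by 2.10, the glycogen synthase gene Gys1 by 1.57 and the liver-type phosphorylase gene Pygl by 1.72. Among lysyl oxidases and collagen hydroxylases, which crosslink and hydroxylate collagen, all 8 tested genes were called, 6 lower and 2 higher. Of the 8, 5 are hypoxia list members and all 5 fell, while of the other 3 genes 1 fell and 2 rose. P4ha2, a subunit of collagen prolyl 4-hydroxylase, was 142.53 and 151.45 TPM in Control and 32.54 and 34.6 TPM in CypD OE (-2.10 ± 0.06), and Plod2, a lysyl hydroxylase, fell by 1.45. Loxl3, a lysyl oxidase, went the other way, from 23.47 and 28.93 TPM to 64.44 and 60.43 TPM (1.23 ± 0.13, limma adjusted p = 0.00042), and the collagen galactosyltransferase gene Colgalt1 rose by 0.71. The demethylase and TET enzymes, which like the hydroxylases need oxygen, had 7 of 20 members lower and 4 higher, and 3 lower and 4 higher among the 15 that are not in the hypoxia list. Kdm3a fell by 1.01, Kdm4b by 1.30 and Tet1 by 1.33, while Tet3 rose by 0.44. In the list of acid and ion exchange, Car9, a carbonic anhydrase of the cell surface, went from 16.31 and 14.48 TPM to 1.74 and 2.43 TPM (-2.42 ± 0.18), and Bsg, the chaperone of lactate transporters, from 933.26 and 957.76 TPM to 368.89 and 380.22 TPM (-1.33 ± 0.04). Slc16a7, a pyruvate and lactate transporter of low expression, rose by 1.16.

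Set beside WT cells at 21% oxygen, the hypoxia genes that fell in CypD OE at 1% oxygen lay mostly within 1.5-fold of WT. Bnip3 was 14.42 and 11.09 TPM in WT, Egln1 22.07 and 21.93 TPM, and Pdk1 7.35 and 7.26 TPM, values that fall around those of CypD OE. Of the 46 members that fell, 40 (87.0%) had a CypD OE mean within 1.5-fold of the WT mean, near the 84.1% of all 2477 genes that fell. Of the 46, 23 were below both WT libraries, 10 above both and 13 overlapped them. Over all 2477 genes that fell, 1823 were below both, 207 above both and 447 overlapped them. The median CypD OE minus WT of the 46 was -0.17 and their median Control minus WT 1.40 on the log2 scale. Over all 2477 genes these medians were -0.24 and 0.23. Among all 365 genes that fell by more than 1, the share within 1.5-fold of WT was 44.9%, and 295 of them were below both WT libraries. Oxygen, plasmid and selection all differ between WT and the libraries at 1% oxygen, so no test was made of this and the parts of each cannot be told apart.

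**Figure D2:**
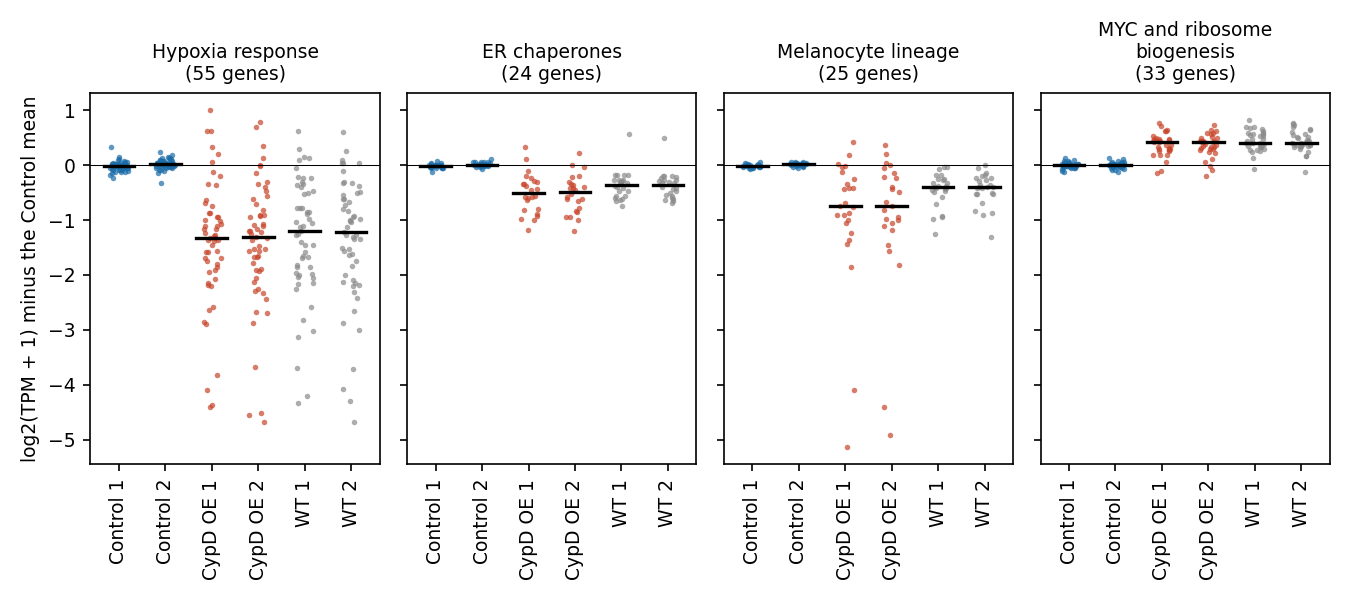
Log2(TPM + 1) minus the mean of the 2 Control libraries for every tested member of 4 lists, 1 point per gene and library, with the library median as a bar, in Control, CypD OE (both 1% oxygen) and WT (21% oxygen). The medians of the hypoxia response and of ribosome biogenesis lie alike in CypD OE and WT, while those of ER chaperones and melanocyte genes are lower in CypD OE than in WT.

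Many of the largest changes were in genes outside the hypoxia list. Spp1, the gene of osteopontin, was 33.48 and 31.51 TPM in Control and 0.07 and 0.2 TPM in CypD OE (-4.88 ± 0.17, limma adjusted p = 2.8e-06). Mmp11, the matrix metalloproteinase stromelysin-3, was 39.86 and 42.14 TPM against 0.58 and 0.47 TPM (-4.78 ± 0.09, limma adjusted p = 2.6e-07). Both genes were near 0 in CypD OE, and for Mmp11 the WT libraries, at 43.24 and 44.24 TPM, were at the Control level. Mgarp, a mitochondrial protein, was likewise near 0 in CypD OE alone, with 26.05 and 31.92 TPM in Control, 0.4 and 0.24 TPM in CypD OE and 20.3 and 19.29 TPM in WT. Rhox5, a homeobox gene of the X chromosome, was 22.89 and 20.04 TPM in Control, 0.25 and 0 TPM in CypD OE and 21.44 and 19.99 TPM in WT. For these genes CypD OE stood apart from both other groups. Kbtbd11 fell by 4.20, with WT at 0.49 and 0.23 TPM, close to CypD OE. Aire, the autoimmune regulator, was 25.93 and 33.19 TPM in Control and listed at 0 in both CypD OE libraries, and at 0.14 and 0 TPM in WT.

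The increases were led by Hapln1, which links hyaluronan to proteoglycans in the extracellular matrix (chr13:89686581-89759950, plus strand). It was 4.9 and 4.6 TPM in Control, 106.07 and 104.05 TPM in CypD OE and 6.56 and 6.64 TPM in WT. The CypD OE libraries stood far above the other 4 values (4.21 ± 0.09, limma adjusted p = 4.4e-07). Slc7a11, the cystine importer xCT, was 1.68 and 1.4 TPM in Control, 31.04 and 28.83 TPM in CypD OE and 8.82 and 9.69 TPM in WT, so that the groups were ordered Control, WT, CypD OE without overlap (3.61 ± 0.10, limma adjusted p = 1.1e-06). Adam12, a disintegrin metalloproteinase, was 13.6 and 14.51 TPM against 85.6 and 82.89 TPM (2.50 ± 0.08). Hpgds, a prostaglandin D synthase, was 10.64 and 12.19 TPM against 80.72 and 77.11 TPM (2.69 ± 0.11). Genes for this ranking had to be called and without overlap of Control and CypD OE. Tnnt2 (cardiac troponin T), Fndc3c1, Mest (an imprinted hydrolase), Sytl4 (a vesicle docking protein), Hes1 (a Notch-responsive repressor) and Fxyd5 (a subunit of the sodium pump) rose by 2.14 to 2.47. Of the 241 genes that rose by more than 1, 225 were above both WT libraries and 62 (25.7%) had a mean within 1.5-fold of WT.

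**Figure D3:**
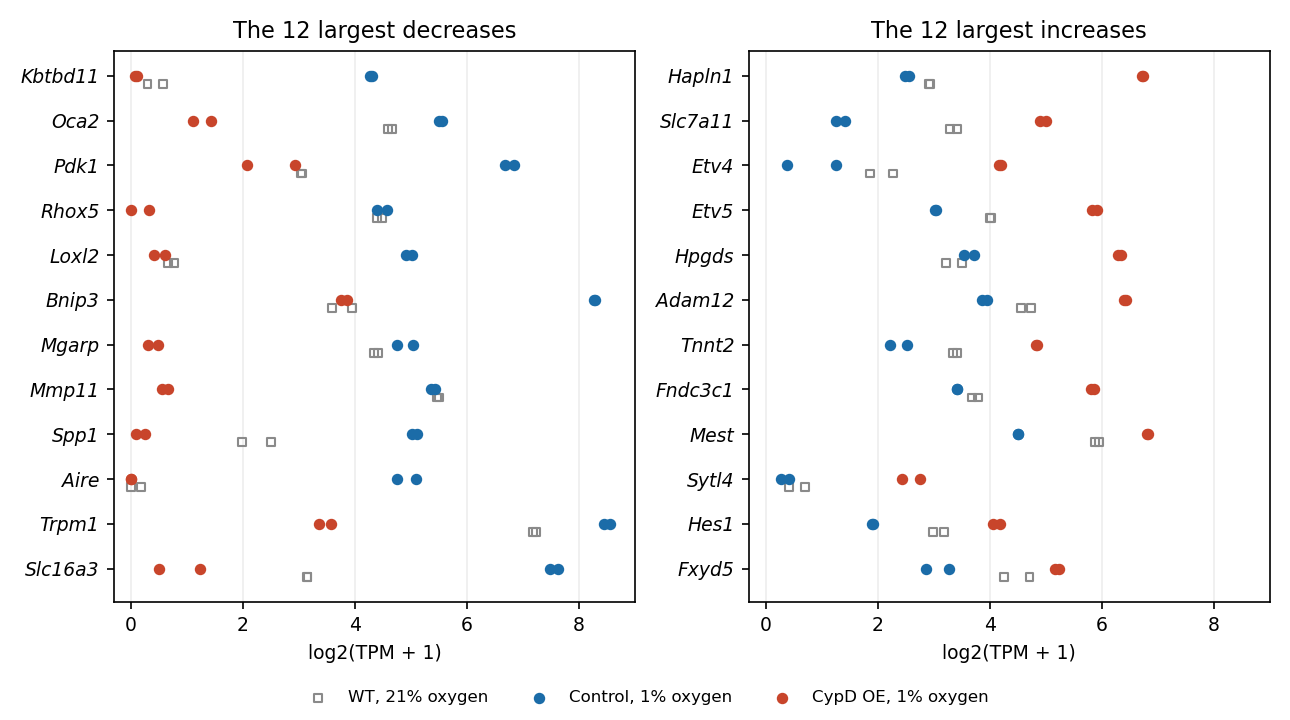
Log2(TPM + 1) in each Control and CypD OE library (1% oxygen, filled circles) and each WT library (21% oxygen, open squares) for the 12 largest decreases and the 12 largest increases among protein-coding genes. Only called genes without overlap between Control and CypD OE were eligible. WT lies near CypD OE for Bnip3, Loxl2, Pdk1 and Aire but near Control for Mmp11, Mgarp and Rhox5.

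Etv5 and Etv4, ETS transcription factors induced by signalling through ERK, were among the 12 largest increases. Etv5 was 7.11 and 7.22 TPM in Control and 59.46 and 55.58 TPM in CypD OE (2.84 ± 0.06, limma adjusted p = 5.6e-07), and Etv4 was 0.3 and 1.38 TPM against 17.36 and 17.06 TPM (3.37 ± 0.30, limma adjusted p = 0.0002). The CypD OE libraries of both genes were above every Control and WT value. In the list of AP-1 and immediate early genes, 9 of 19 tested members rose (47.4%) and 6 fell (31.6%). Both shares were above the 20.9% and 19.9% over all genes. Among those that rose were feedback inhibitors of the pathway. Spry4 was 2.31 and 1.7 TPM in Control and 9.69 and 9.3 TPM in CypD OE (1.81 ± 0.13), and Dusp6, the ERK phosphatase, was 51.67 and 54.47 TPM against 107.23 and 100.36 TPM (0.95 ± 0.06, limma adjusted p = 6e-05). Spry2 rose by 1.00 and the immediate early factor Egr1 by 1.58, whereas Fosl2 fell by 0.78 and Ier5 by 1.05. The median of the list, 0.12, was -0.06 when only genes of at least 5 TPM were kept. Receptor kinases were divided, with 5 of 13 tested members higher (38.5%) and 4 lower (30.8%), also above the shares over all genes. Erbb3, which binds neuregulin, was 8.83 and 9.73 TPM in Control and 44.18 and 40.74 TPM in CypD OE (2.08 ± 0.08), with WT between them at 17.13 and 17.64 TPM. Tyro3 rose by 1.48 and Erbb2 by 0.70. Met, the receptor of hepatocyte growth factor, fell from 387.09 and 401.56 TPM to 144.63 and 132.67 TPM (-1.50 ± 0.05), and Kit, the receptor of stem cell factor, fell by 1.41.

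Melanocyte genes were mostly lower. Melanocytes are specified by the factors MITF and SOX10 and make melanin in melanosomes with the enzymes TYR, TYRP1 and DCT. Of 25 tested genes of the lineage, 19 fell and 2 rose, with a median log2 fold change of -0.74. Trpm1, a cation channel gene controlled by MITF, showed the deepest decrease, from 374.47 and 348.08 TPM in Control to 9.28 and 10.95 TPM in CypD OE (-5.03 ± 0.09, limma adjusted p = 2.6e-07). WT lay between, at 150.15 and 144.69 TPM. Oca2, a melanosomal anion channel, followed the same order, with 44.31 and 46.13 TPM in Control, 1.69 and 1.17 TPM in CypD OE and 23.21 and 24.35 TPM in WT (-4.26 ± 0.11). Tspan10, a tetraspanin, fell by 1.83. The members named next were chosen after their values were seen. Mitf was 379.2 and 371.16 TPM in Control and 203.4 and 189.66 TPM in CypD OE (-0.93 ± 0.04), with WT at 276.61 and 280.8 TPM. Pmel, the fibril protein of melanosomes, fell by 0.93, Tyrp1 by 0.74 and Dct by 0.47. Tyr, in contrast, was 74.16 and 75.55 TPM against 74.07 and 74.86 TPM, and Mlana 1980.83 and 2022.66 TPM against 2033.73 and 2066.68 TPM, with overlapping libraries for Tyr and a log2 difference of 0.03 for Mlana (limma adjusted p = 0.28). Sox10 rose by 0.20 and Rab32, a small GTPase of melanosome biogenesis, by 0.39. In these bulk libraries a smaller number of cells of a type cannot be told apart from less RNA per cell. Of the 19 members that fell, 17 were below both WT libraries, with a median CypD OE minus WT of -0.50. Over all genes that fell, 1823 of 2477 were below both.

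Chaperones of the ER were lower as a group. These proteins fold secreted and membrane proteins, and the unfolded protein response raises them through ATF6, XBP1 and ATF4. Of 24 tested genes, 21 fell and 1 rose, with a median of -0.49. Hsp90b1, the chaperone GRP94, was 2267.7 and 2239.45 TPM in Control, 1138.04 and 1165.77 TPM in CypD OE and 1522.4 and 1542.6 TPM in WT. The 3 groups did not overlap and CypD OE was the lowest (-0.97 ± 0.03 against Control, limma adjusted p = 9.9e-07). Pdia6, a disulfide isomerase, was 584.56 and 591.9 TPM against 293.96 and 295.07 TPM and fell by 1.00 (SE 0.03). Sdf2l1, a cochaperone, was 112.07 and 116.28 TPM against 49.85 and 49.22 TPM (-1.19 ± 0.04). The level of each was close to halved and the replicates within a group were nearly equal. Creld2 fell by 0.93 and Dnajb9, a cochaperone, by 0.86. Chosen after their values were seen, Hspa5, the chaperone BiP, was 1301.32 and 1316.51 TPM against 864.79 and 852.05 TPM (-0.61 ± 0.03), P4hb fell by 0.79 and the sensor gene Atf6 by 0.62. Xbp1 fell by 0.38, a call that was lost without the second CypD OE library. The gene that rose was Selenos (0.28), whose call was lost without the first Control or the first CypD OE library. Of the 21 that fell, 15 were below both WT libraries and 5 above both. Over all 2477 genes that fell, 1823 were below both and 207 above both.

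Genes of amino acid supply and of the antioxidant response rose in part. ATF4 drives genes that import and make amino acids, and NRF2 drives genes that make glutathione and thioredoxin. Of 30 tested ATF4-type genes, 17 rose and 5 fell (3 without the second library of either group), with a median of 0.47. Asns, asparagine synthetase, was 70.59 and 77.07 TPM in Control and 181.42 and 184.63 TPM in CypD OE (1.30 ± 0.05, limma adjusted p = 5.4e-06). Mthfd2, an enzyme of mitochondrial folate metabolism, was 98 and 100.75 TPM against 221.06 and 211.45 TPM (1.11 ± 0.04). Neither gene had overlapping groups, and for both genes WT lay between them. Atf5 rose by 1.46, and, named after their values were seen, Shmt2 and Psph of serine and glycine metabolism rose by 0.68 and 0.81. Ddit3, the stress factor CHOP, fell by 0.53 and Wars, the tryptophanyl-tRNA synthetase gene, by 0.45. Atf4 was 226.37 and 230.73 TPM against 220.26 and 226.69 TPM, and its libraries overlapped.

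Of 26 tested NRF2-type genes, 13 rose and 4 fell. Beside Slc7a11, which is in both lists, Srxn1, which repairs peroxiredoxins, was 20.94 and 21.48 TPM in Control and 50.48 and 47.31 TPM in CypD OE (1.17 ± 0.05, limma adjusted p = 8.8e-06). Osgin1 rose by 1.93, the quinone reductase gene Nqo1 by 1.31 and the glutathione reductase gene Gsr by 1.10. Txnrd1, thioredoxin reductase, chosen after its values were seen, was 198.71 and 195.72 TPM against 412.21 and 404.08 TPM (1.05 ± 0.03). These genes were at least doubled. Hmox1, heme oxygenase, was 51.11 and 51.26 TPM against 29.12 and 27.47 TPM and fell (-0.83 ± 0.05, limma adjusted p = 2.8e-05), as did the ferritin light chain gene Ftl1 (-0.42). Nfe2l2, the gene of NRF2 itself and also named after its values were seen, fell by 0.39. The metallothionein genes Mt1 and Mt2, which bind zinc and copper, fell by 0.91 and 1.00. In their list of 13 metal genes 6 fell (46.2%) and 3 rose (23.1%), against 19.9% and 20.9% over all genes.

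MYC and the genes of ribosome biogenesis were higher almost throughout. MYC drives transcription of nucleolar proteins that process ribosomal RNA. Of 33 tested genes, 29 rose and 1 fell, with a median of 0.40. Myc (chr15:61857227-61862223, plus strand) was 71.14 and 74.76 TPM in Control and 124.8 and 121.52 TPM in CypD OE (0.75 ± 0.05, limma adjusted p = 4.8e-05), while the genes of its chromosome had a median of -0.18. Polr1a, the largest subunit of RNA polymerase I, was 80.23 and 81.05 TPM against 126.96 and 122.05 TPM (0.62 ± 0.04). The changes were modest in size, and no groups overlapped. Wdr12 rose by 0.68, Wdr43 by 0.62 and Nop16 by 0.60, all factors of ribosome assembly. The abundant nucleolar genes Npm1 and Ncl, named after their values were seen, rose by 0.28 and 0.40. The member that fell, Bop1 (-0.17), lost its call under several alternatives. Of 79 tested genes of the ribosomal proteins themselves, 12 rose and 13 fell, shares under those over all genes, and the median was -0.02, with a range of -0.0377 to 0.0353 over the alternatives. These counts depended on the processing, with 23 higher and 7 lower once the length trend was removed, 19 and 6 when rescaled to transcripts of at least 300 bases, 6 and 5 without a variance trend, and 6 lower without the second Control library. The 29 members that rose were all within 1.5-fold of WT, as were 82.2% of all 2594 genes that rose. Of the 29, 16 were below both WT libraries, against 280 of the 2594.

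Targets of YAP and TEAD, which respond to cell shape and tension, rose in 11 of 20 tested genes and fell in 0, with a median of 0.34. Ccn2, connective tissue growth factor, was 10.58 and 12.12 TPM in Control, 29.94 and 30.02 TPM in CypD OE and 9.01 and 11.72 TPM in WT (1.33 ± 0.12, limma adjusted p = 0.00019). Amotl2 rose by 0.91, F3, tissue factor, by 0.80 and Tgfb2 by 0.80. All 11 were above both WT libraries, as were 1904 of all 2594 genes that rose. Yap1, chosen after its values were seen, was 86.21 and 90.84 TPM against 96.5 and 91.34 TPM (limma adjusted p = 0.23). Actin genes and SRF targets were less uniform, with 5 of 16 higher (2 or 3 without any one library) and 2 lower. Tagln, a smooth muscle actin-binding protein, fell from 9.6 and 7.99 TPM to 1.08 and 0.74 TPM (-2.36 ± 0.14), and Flna, filamin A, rose by 0.29.

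Genes of epithelial-mesenchymal transition and of the matrix did not move as a group. Of 36 tested transition genes, 11 rose (30.6%) and 14 fell (38.9%), with a median of -0.08. Over all genes 20.9% rose and 19.9% fell. Vim, vimentin, was 1005.33 and 1037.57 TPM in Control and 1135.25 and 1115.82 TPM in CypD OE (0.14 ± 0.03, limma adjusted p = 0.0062). Cdh2, N-cadherin, was 95.55 and 94.77 TPM against 94.7 and 92.64 TPM (limma adjusted p = 0.67). Cdh1, Snai1 and Twist1 were too low to be tested. Thbs1, thrombospondin, rose by 1.10 and Plat, tissue plasminogen activator, fell by 1.83. Collagen chains were divided, with 5 of 14 lower and 4 higher, the latter 2 without the second library of either group. The 5 that fell included Col1a1 and Col1a2, from 11.36 and 9.65 TPM to 3.82 and 2.22 TPM for the latter (-1.54 ± 0.27). All 5 were below both WT libraries, as were 1823 of all 2477 genes that fell. Col1a1 and Col1a2 are also fibroblast markers, and the part of their summed level in this result was not tested. Col15a1 rose by 1.03. Among integrins and laminins 4 rose and 4 fell of 14 (28.6% each), with Itgb5 higher by 1.25 and Itga1 by 1.10. Itga9 was lower by 1.47 and Itgav by 0.79. Calcium-binding S100 proteins and annexins had 8 of 14 members lower and 2 higher. Anxa2 fell from 411.71 and 430.73 TPM to 174.38 and 166.79 TPM (-1.30 ± 0.04) and S100b by 1.02, whereas Anxa1 and Anxa11 rose by 0.68 and 0.81. Cav1, the coat protein of caveolae, fell by 1.46 and Cavin1 by 1.14.

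Lysosome genes were lower in 21 of 33 tested and higher in 4, mostly by small steps, with a median of -0.25. Ctsd, cathepsin D, was 721.02 and 752.82 TPM in Control and 441.94 and 429.11 TPM in CypD OE (-0.76 ± 0.04, limma adjusted p = 1.8e-05), and Ctsz fell by 0.85. The proton pump subunit genes Atp6v1d and Atp6v0d1 fell by 0.78 and 0.70, while Atp6v1e1 rose by 0.49. The mitophagy receptor genes Bnip3l and Fundc1 fell by 1.99 and 0.65, in a list of 25 autophagy genes of which 10 fell and 4 rose. Sqstm1, the autophagy receptor p62, was the exception in size, with 631.06 and 637.15 TPM in Control and 1044.87 and 1121.06 TPM in CypD OE (0.77 ± 0.04). Both of its CypD OE libraries were well above Control. Genes of cholesterol synthesis and uptake fell in 12 of 25 tested. Sqle, squalene epoxidase, fell from 80.5 and 80.57 TPM to 51.18 and 48.41 TPM (-0.68 ± 0.04), and Fdps and Fdft1 each by 0.45. All 12 that fell were below both WT libraries, as were 1823 of all 2477 genes that fell. In lipid storage, Mgll fell by 2.21, Fabp3 by 2.05 and the lipid droplet coat gene Plin2 by 1.05, and Pnpla2, the lipase ATGL, rose by 0.53. In the BCL2 family 5 of 13 tested genes fell (38.5%) and 3 rose (23.1%), the latter near the 20.9% over all genes. Of the 11 that are not in the hypoxia list, 3 fell and 3 rose. The survival gene Bcl2l1 rose by 0.57 and the death gene Bid by 0.90, and Bcl2 fell by 0.37.

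Mitochondrial genes changed in both directions. Of 17 genes of the permeability transition and of mitochondrial calcium, 4 rose and 4 fell (23.5% each), near the 20.9% and 19.9% over all genes. Slc25a4, the adenine nucleotide translocator, was 261 and 265.35 TPM in Control and 408.58 and 406.4 TPM in CypD OE (0.63 ± 0.04, limma adjusted p = 2.6e-05). Its CypD OE libraries were above both WT libraries as well, at 379.71 and 361.49 TPM. Hk2, the hexokinase that docks on mitochondria, fell by 1.69, Vdac1, the outer membrane channel, by 0.33, and Smdt1, a regulator of the calcium uniporter, by 0.33. Of 16 mitochondrial chaperones and proteases, 4 rose and 6 fell, but 2 fell when any of the 4 libraries was left out. Htra2 rose by 0.56 and Lonp1 fell by 0.54. Proteins encoded by mitochondrial DNA were higher in 8 of 11 tested and lower in 1, with a median of 0.33. mt-Cytb was 8670.39 and 8108.75 TPM in Control and 14414.2 and 15379.8 TPM in CypD OE (0.83 ± 0.05), and mt-Nd1 rose by 0.77. The nuclear subunits of the respiratory chain, in contrast, were lower in 41 of 77 tested and higher in 8 (5 without the second Control library), with a median of -0.19. Ndufs3 fell by 0.68 and Sdhc by 0.52, while Cox7c rose by 0.42. TPM of a library sum to a fixed total, and rescaling to transcripts of at least 300 bases moved the median of all genes from 0.00713 to 0.0338.

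Genes of proliferation and of immune responses had calls in both directions, to be read beside 20.9% higher and 19.9% lower over all genes. Replication genes rose in 12 of 41 tested (29.3%) and fell in 8 (19.5%, near the share over all genes), with a median of 0.00670. The increases were 7 without the first CypD OE library and the decreases 5 without it or without the second Control library. Ccne1, cyclin E1, rose by 0.51 and Cdt1 by 0.40, while Gins2 and Gins3 fell by 0.62 and 0.56. Genes of mitosis rose in 6 of 43 and fell in 9 (20.9%), the latter near the share over all genes and 4 to 6 genes when a library was left out. Cyclin D1, Ccnd1, was 106.62 and 113.76 TPM in Control and 152.97 and 147.56 TPM in CypD OE (0.44 ± 0.04), and the inhibitor gene Cdkn1b fell by 0.33 while Cdkn1a rose by 0.29. Interferon response genes rose in 4 of 24 and fell in 4 (16.7% each), under the shares over all genes, with Trim25 lower by 1.49 and Irgm1 higher by 1.28. MHC class I genes fell in 4 of 12 and rose in 2 (1 without the first library of either group). H2-K1 was 12.32 and 15.35 TPM against 1.67 and 4.92 TPM (-1.89 ± 0.38), and H2-D1 fell by 0.61. Reads of these near-identical genes can be shared between them, so their values are uncertain. NF-kappaB genes fell in 4 of 13 and rose in 2, and 1 or 2 fell when any library was left out, with Nfkb1 lower by 0.34 and Rela higher by 0.35. Angiogenic factors fell in 5 of 14 (3 without the second CypD OE library) and rose in 4, with Pgf, placental growth factor, lower by 1.44. Of the 12 that are not in the hypoxia list, 3 fell and 4 rose.

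**Figure D4:**
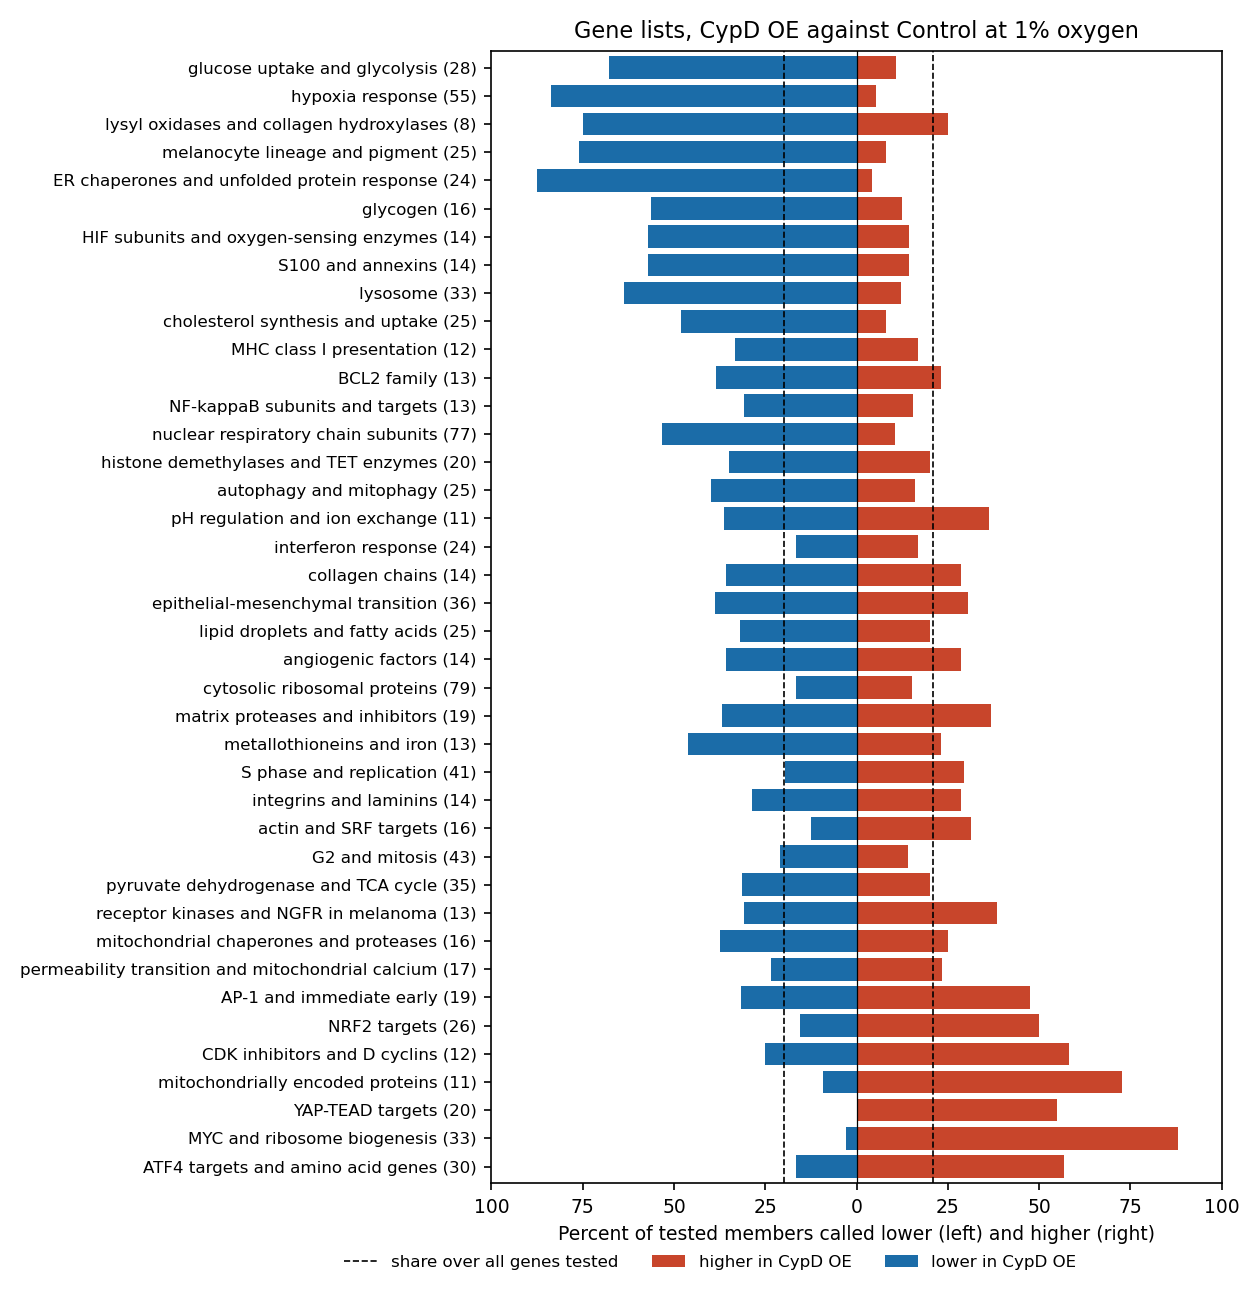
Percent of the tested members of each gene list (number in brackets) called lower (blue, left) and higher (red, right) in CypD OE, ordered by median log2 fold change, with dashed lines at the shares over all genes of at least 300 bases, 19.9% and 20.9%. Hypoxia, glycolysis, ER chaperone and melanocyte lists extend far past the left line, and MYC and ribosome biogenesis, mitochondrially encoded proteins, ATF4 targets and YAP-TEAD targets past the right line.

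Among non-coding genes of at least 300 bases, Gm28037 (chr16:55786706-55801084, plus strand) was listed at 0 in both Control libraries and was 10.55 and 10.61 TPM in CypD OE, and it was also at 0 in WT. Gm48972 was 0.14 and 0.04 TPM in Control and 5.65 and 5.17 TPM in CypD OE. Both were present in CypD OE at near-equal levels in its 2 libraries. Peg13, an imprinted transcript of chromosome 15 (chr15:72677449-72682173, minus strand), was 7.31 and 6.76 TPM in Control, listed at 0 in both CypD OE libraries and 5.55 and 5.66 TPM in WT. Gm14461 fell from 11.3 and 10.93 TPM to 0.05 and 0.05 TPM. Of the called genes of at least 300 bases, 20 had a group listed at 0. The 182 short transcripts, which total RNA libraries of this kind cover unevenly, gave 22 higher (12.1%) and 15 lower (8.24%) calls, and 21 of the 37 called were pseudogenes. In 22 of the 37, a group was listed at 0 in both libraries, in 15 of them Control. Mir8094 was at 0 in Control and 85.96 and 90.8 TPM in CypD OE, but also 0 and 66.89 TPM in WT. Rny3 was 71 and 74.29 TPM in Control and 0 in CypD OE, and 79.24 and 0 TPM in WT. Values of such transcripts differed widely within a group, and the calls of Mir8094 and Rny3 were lost when single libraries were left out.

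Changes were unevenly spread over the chromosomes. On chromosome 13, 45.0% of 458 genes rose and 6.33% fell, with a median log2 fold change of 0.26. On chromosome 6, 44.5% of 647 genes rose, with a median of 0.21. On chromosomes 12 and 15 the balance was the reverse, with 38.6% of 464 and 38.3% of 478 genes lower and medians of -0.17 and -0.18. Relative to the mean of all 8 libraries, the chromosome 13 medians were 0.17 and 0.14 in CypD OE, -0.14 and -0.11 in Control and -0.13 and -0.13 in WT, and those of chromosome 12 were -0.14 and -0.18, 0.04 and 0.04, and 0.01 and 0.02. Control and WT lay close together on these chromosomes and CypD OE stood apart. CypD KO also differed from WT on chromosomes 6, 8 and 13 in the same direction, with medians of 0.26, 0.21 and 0.18. On chromosomes 3, 12 and 15 it was higher than WT, with medians of 0.19, 0.0895 and 0.10, where CypD OE was lower than Control. Copy number was not measured, and the part of these shifts in the results was not tested. After each library was centred on its chromosome medians, 2352 genes rose and 2418 fell.

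**Figure D5:**
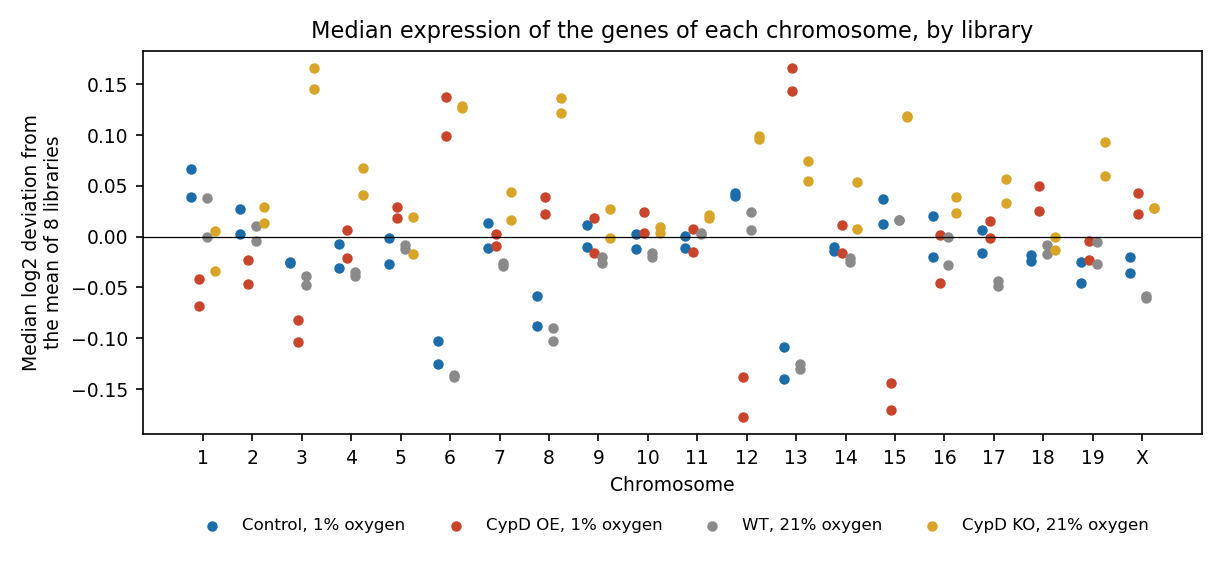
Median log2 deviation of the genes of each chromosome from the mean of all 8 libraries, 1 point per library, coloured by group. CypD OE lies above Control and WT on chromosomes 6, 8 and 13 and below both on chromosomes 12 and 15, and most other chromosomes lie within 0.1 of 0.

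Neighbouring genes moved together in places. Taking 9 neighbouring tested genes at a time, the lowest median, -1.50, was at chr9:77818113-78263077 (GRCm39), which holds the glutathione transferase genes Gsta1, Gsta2, Gsta4 and Gsta5. Gsta1 fell from 221.28 and 227.01 TPM to 30.62 and 32.78 TPM (-2.78 ± 0.05), with WT at 128.1 and 125.27 TPM. These paralogs share sequence, so the split of reads between them is uncertain, and Gsta1, Gsta2, Gsta4, Gsta5 and their paralog Gm3776 were each lower in both CypD OE libraries than in every Control and WT library. At chr15:66449357-72934559 the median was -0.79, with Ccn4, a WNT-induced matricellular gene, down by 2.34 and Ndrg1, a hypoxia gene, down by 1.25. At chr15:84553767-85695910 it was -0.72, with the matrix gene Fbln1 lower by 1.75. The highest median, 1.07, was at chr16:24348144-29886643, where 6 of 9 genes rose, among them Hes1, P3h2 (1.08) and Il1rap (1.07). At chr6:52191471-53677361 all 9 genes rose, from Hoxa7 to Creb5, with a median of 0.94. Hoxa11 was 3.43 and 3.52 TPM in Control and 11.94 and 11.2 TPM in CypD OE (1.49 ± 0.10). Of these 9, Hibadh, Tax1bp1 and Jazf1 were not called after centring on chromosome medians. The third, at chr6:7671667-8778604 with a median of 0.71, starts with Asns and takes in C1galt1 (1.10) and Ica1 (1.11).

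CypD KO against WT at 21% oxygen, the comparison that removes CypD, shares no library with CypD OE against Control, and 3734 genes rose (30.0%) and 2439 fell (19.6%) in it. Across the 12432 genes the log2 fold changes of the 2 comparisons were close to unrelated, with r = -0.06 and rho = -0.06, given as a description since genes are not independent. Of the 46 hypoxia genes that fell in CypD OE, 39 rose in CypD KO, in which 44 members of the list rose. Bnip3 was 14.42 and 11.09 TPM in WT and 258.34 and 249.31 TPM in CypD KO, approaching its level in Control at 1% oxygen. All 29 ribosome biogenesis genes that rose in CypD OE fell in CypD KO, in which 31 members fell. Myc was 99.12 and 93.35 TPM in WT and 45.47 and 44.38 TPM in CypD KO. In other lists decreases were common in both comparisons. Melanocyte genes fell in 19 of 25 in CypD OE and in 15 of 25 in CypD KO, where 4 rose, and ER chaperones fell in 21 and 13 of 24, with 1 and 6 higher. Mmp11 and Trpm1 fell in both comparisons, by 4.78 and 5.03 in CypD OE and by 3.09 and 1.81 in CypD KO, and Ccn2 rose in both, by 1.33 and 3.44. Of all 2477 genes that fell in CypD OE, 1024 rose in CypD KO, which is 41.3% of them and 27.4% of the genes that rose in CypD KO, and 549 fell, 22.2% of them and 22.5% of the genes that fell in CypD KO. Of the 2594 that rose in CypD OE, 697 fell in CypD KO, 26.9% of them and 28.6% of the genes that fell in CypD KO, and more, 897, rose in it, 34.6% of them and 24.0% of the genes that rose in CypD KO.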

How the data were processed

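RNA from 8 libraries of B16F10 cells, 2 per group, was depleted of ribosomal RNA and sequenced by the authors (paired ends). Reads were trimmed with Cutadapt 3.4, aligned to GRCm39 with STAR 2.7.8a and quantified with RSEM 1.3.1, and the authors tested counts with DESeq2 1.26.0. The deposited values are TPM to 2 decimals for 55414 genes. TPM sum to a constant per library, so each value depends on all others and RSEM divides shared reads between genes. All columns were matched to a sample by name (0 were not). Gene symbols, lengths and positions came from the GRCm39 annotation, which held 54749 of the identifiers, and 33475 genes were at 0 in the 4 libraries.

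Genes with at least 1 TPM in 2 of the 4 libraries were put on the log2(TPM + 1) scale and fitted by limma 3.58.1 (R 4.3.3), with a mean for each of the 4 groups over all 8 libraries, so that Control and CypD OE share 1 estimate of the spread with WT and CypD KO, and eBayes with a trend. Tests were two-sided, and p-values were adjusted by Benjamini-Hochberg over 12656 genes, with a threshold of 0.05. An exact permutation test of 2 against 2 libraries could not pass this threshold. On simulated data for these genes, 41%, 77% and 95% of 200 genes changed by 0.5, 1 and 2 on the log2 scale were called. Of the unchanged genes 2, 4 and 14 were called. The simulation had independent normal noise and changed only 200 of 12656 genes, while 5071 genes of at least 300 bases were called here. Its rates therefore do not describe detection in this comparison. Named were Ppif, the 12 largest protein-coding increases and decreases, the largest non-coding and short transcripts, and the genes of 6 windows. Genes the study measured otherwise were also named, with up to 5 members per list in its main direction and 2 in the other. The largest protein-coding changes were taken among called genes without overlap of the groups and with a mean of at least 5 TPM in the higher group. Further genes are stated as chosen after their values were seen, as were the comparison with WT and the promoter motifs of ER stress and NRF2. Some genes are not reported here. Members, lists and tests were chosen with earlier results of these data known, and lists share genes. Replicate numbers come from the library names. Alternatives were other pseudocounts, filters, scalings, length limits and fits, a replicate block, centring on chromosomes, removal of length trends, and leaving out each library. Tables were made with Python 3.11.15, pandas 2.3.3 and numpy 2.4.6.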

Additional observations from a re-analysis of the deposited data

How the results depend on the processing

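The numbers of genes called higher and lower stayed within 1.5 times of those reported under every alternative. Leaving out a library gave 1763 to 2011 higher and 1801 to 1978 lower calls, and 16 to 20 and 11 to 15 among short transcripts. Same-numbered Control and CypD OE libraries did not deviate together (correlation -0.0452), so the replicate numbers do not pair them, and with a replicate block 2440 genes rose and 2348 fell, and Ppif had an adjusted p of 0.104. The Ppif difference passed the threshold when TPM was rescaled over transcripts of at least 300 bases (0.22, limma adjusted p = 0.0480) and with only the 4 libraries in the fit (0.19, limma adjusted p = 0.0470). Over all alternatives it lay between 0.16 and 0.23, with adjusted p from 0.0470 to 0.259, and the cause was not tested.

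Signs turned for the named genes given here, of which Bop1 alone was called. Centred on chromosome medians, the log2 differences were 0.15 for Atf4 (limma adjusted p = 0.0383), 0.0125 for Bop1, 0.137 for Phf20l1, 0.0443 for Phf21b and 0.145 for Trappc9, and with the length trend removed that of Atf4 was 0.0336. Rescaled over transcripts of at least 300 bases they were 0.00609 for Cdh2, 0.000884 for Mb21d2 and 0.0212 for Tyr. Leaving out single libraries, the differences ranged from -1.49 to 0.329 for 7SK, -0.00704 to 0.0810 for Ccdc50, -0.0373 to 0.139 for Fam118a, -0.125 to 0.0343 for Phf20l1, -0.623 to 0.347 for Phf21b, -0.0761 to 0.00106 for Trappc9 and -0.0206 to 0.00582 for Tyr. The causes were not tested. Depth limits genes of a few TPM, whose values rest on few fragments.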
